A study of Homo sapiens with 8 samples.

Results

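Interferon-stimulated genes were followed here through 39 members, taken by gene symbol from the 57884 genes listed in each of the 2 deposited tables: the OAS, IFIT, IFITM and MX families, the ISG15 system, RNA sensors, transcription factors of the pathway, other antiviral effectors and antigen-processing genes. Of these, 38 passed the filter on low values (FPKM of 1 or more in at least 2 of the 8 libraries) among 17994 genes that did; XAF1, a proapoptotic interferon-induced gene, did not and was listed between 0 and 1.33 FPKM. FPKM is a fragment count scaled by transcript length and by the fragments mapped in the library, so levels can be compared between genes within a library.

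The cells were hTERT-RPE1, an established line of human retinal pigment epithelium that carries telomerase (hTERT) to keep it dividing. Libraries labelled wildtype and libraries labelled ATF3(-/-), a knockout of the stress-induced transcription factor ATF3, were made from cells in complete medium or after 8 h in serine/glycine-free medium. All cells had first grown for 2 days in complete medium. Each of the 4 groups had 2 libraries, 1 in each of 2 independent experiments, called batch 1 and batch 2, which were run a week apart. The labels do not say whether the knockout line was 1 clone or how the ATF3 gene was changed. The labels name no interferon or virus for any group, and the levels in complete medium are called basal here.

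The mRNA of the targeted gene did not follow the genotype label. ATF3 stood at 3.47 (complete) and 6.46 FPKM (serine/glycine-free) in batch 1 wild type and at 3.38 and 4.45 FPKM in the batch 1 libraries labelled knockout. The batch 2 values were 3.65 and 18.0 FPKM in wild type, against 20.8 and 57.3 FPKM in labelled knockout. It was thus not called in batch 1 (log2 difference −0.24, limma adjusted p = 0.849) and was called higher in labelled knockout in batch 2 (1.92, adjusted p = 0.0435). The mRNA level does not show whether ATF3 protein was made, so these libraries are called labelled knockout throughout. The batches differed more than the groups did: log2 values of 2 libraries correlated at 0.920 to 0.957 within a batch and at 0.768 to 0.815 between batches, as a description over the kept genes. Of 15 retinal pigment epithelium markers 7 passed the filter, and the list was mixed. RPE65 (0.102 to 0.695 FPKM) and BEST1 (0.160 to 1.37 FPKM) were near the bottom of the scale in all libraries. KRT8 stood at 34.5 to 249 FPKM and KRT18 at 39.7 to 137 FPKM. In batch 2, 3 markers were called higher in labelled knockout: KRT8 (1.90), KRT18 (1.47) and LRAT (1.57), against 4.94% of all genes. LRAT stood at 1.71 and 2.39 FPKM there and at or below 0.0472 FPKM elsewhere, so it passed the filter only through that group.

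Interferons bind receptors that activate the kinases JAK1 and TYK2, which phosphorylate STAT proteins. STAT2 and IRF9 are subunits of the complex ISGF3, which binds the interferon-stimulated response element in the promoters of its target genes. Many of the targets act against viruses by sensing or degrading RNA, blocking translation or blocking entry, and several, STAT2, IRF7 and IRF9 among them, feed back into the pathway. Epithelial cells keep a low level of many of these genes without added interferon.

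The promoters of 4 members are shown because they hold the core of that response element and belong to members with large differences between the genotype labels in batch 2. The core searched was GAAA, any 2 bases and GAAA again (TTTC, any 2 bases and TTTC on the reverse strand), in RefSeq windows of 300 bases, from 250 before to 50 after a gene start, on GRCh38.p14. Of the 39 members, 32 were in the RefSeq table by symbol. At least 1 window of 23 of these 32 members held a match (71.9%), against 1195 of all 27305 genes in the table (4.38%). Counted by window, 27 of 42 member windows held one (64.3%), against 1255 of 35116 (3.57%). Of the members in the table, 7 of the 11 called in batch 2 and 16 of the other 21 held a match; OAS1, with the largest batch 2 difference, and IRF9 held none. A match is a run of letters and was not tested for binding. In the sequences below, written 5′ to 3′ along the gene's strand, capitals mark matches, and matches that overlap run together.
IFI6: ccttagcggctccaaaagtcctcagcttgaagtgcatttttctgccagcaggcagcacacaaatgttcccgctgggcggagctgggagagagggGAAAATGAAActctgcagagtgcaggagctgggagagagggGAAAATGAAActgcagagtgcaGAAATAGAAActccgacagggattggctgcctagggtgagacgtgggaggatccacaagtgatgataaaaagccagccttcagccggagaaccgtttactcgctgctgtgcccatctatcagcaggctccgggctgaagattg
MX1: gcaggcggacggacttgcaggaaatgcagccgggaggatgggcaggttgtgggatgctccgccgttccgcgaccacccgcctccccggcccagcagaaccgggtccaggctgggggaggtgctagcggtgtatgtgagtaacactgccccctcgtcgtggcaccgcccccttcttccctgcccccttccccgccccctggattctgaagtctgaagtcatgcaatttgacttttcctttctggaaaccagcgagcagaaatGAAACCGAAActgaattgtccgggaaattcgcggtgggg
IFITM1: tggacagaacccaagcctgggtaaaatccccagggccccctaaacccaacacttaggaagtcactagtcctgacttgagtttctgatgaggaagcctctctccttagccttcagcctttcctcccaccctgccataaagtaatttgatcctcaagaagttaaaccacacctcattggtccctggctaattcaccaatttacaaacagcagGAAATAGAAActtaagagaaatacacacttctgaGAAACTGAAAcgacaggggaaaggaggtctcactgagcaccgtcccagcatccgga
IFIH1: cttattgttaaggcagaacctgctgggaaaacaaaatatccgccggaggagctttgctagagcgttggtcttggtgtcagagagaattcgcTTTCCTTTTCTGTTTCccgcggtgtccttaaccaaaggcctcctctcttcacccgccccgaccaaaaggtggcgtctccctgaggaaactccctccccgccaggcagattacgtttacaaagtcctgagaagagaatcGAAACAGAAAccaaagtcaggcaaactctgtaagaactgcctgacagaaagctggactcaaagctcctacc
The IFI6 window lies at chr1:27672143-27672442 (minus strand) and holds 3 matches, the first from base 95 and the last from base 158 of the window. That of MX1, at chr21:41420308-41420607 (plus strand), is 1 of 2 among its 3 windows with a match, which starts at base 262, past the annotated start. IFITM1, at chr11:313790-314089 (plus strand), has 2 matches, from bases 211 and 245. IFIH1, at chr2:162318635-162318934 (minus strand), has 3, the first of them on the reverse strand from base 92.

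In batch 1 the members were at a low basal level, and slightly lower in the libraries labelled knockout. Their median was 3.20 FPKM in wild type and 2.37 FPKM in labelled knockout in complete medium, and 3.24 and 2.62 FPKM in serine/glycine-free medium, where the median of all kept genes was 6.18 to 6.55 FPKM. Between 26 and 30 of the 39 members reached 1 FPKM in a batch 1 library. IFITM3, which blocks viral entry at endosomes, led all 4 of them at 39.8 to 42.9 FPKM.

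In batch 2 the levels were higher in labelled knockout than in wild type. The member median was 5.65 FPKM in wild type and 8.18 FPKM in labelled knockout in complete medium, and 5.02 and 9.96 FPKM in serine/glycine-free medium. The number of members at 10 FPKM or more was 10 in each wild-type library and 18 and 19 in the libraries labelled knockout. ISG15, a ubiquitin-like protein, led all 4 batch 2 libraries, from 120 to 276 FPKM. Fewer cells that express a gene and less RNA per cell cannot be told apart in such bulk libraries. The 2 tables were normalized separately, so a level set across batches is a description: all 4 batch 2 libraries lay above all 4 of batch 1 for 19 of 38 members, against 15.8% of all kept genes, and below for 6, against 29.8%. The heat map of member levels shows that ISG15, ISG20, IRF7, MX1, OAS1, OAS2 and OAS3 were among those higher in batch 2, and PSMB8, PSMB9, PARP14 and IFIT5 among those lower.

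**Figure D1:**
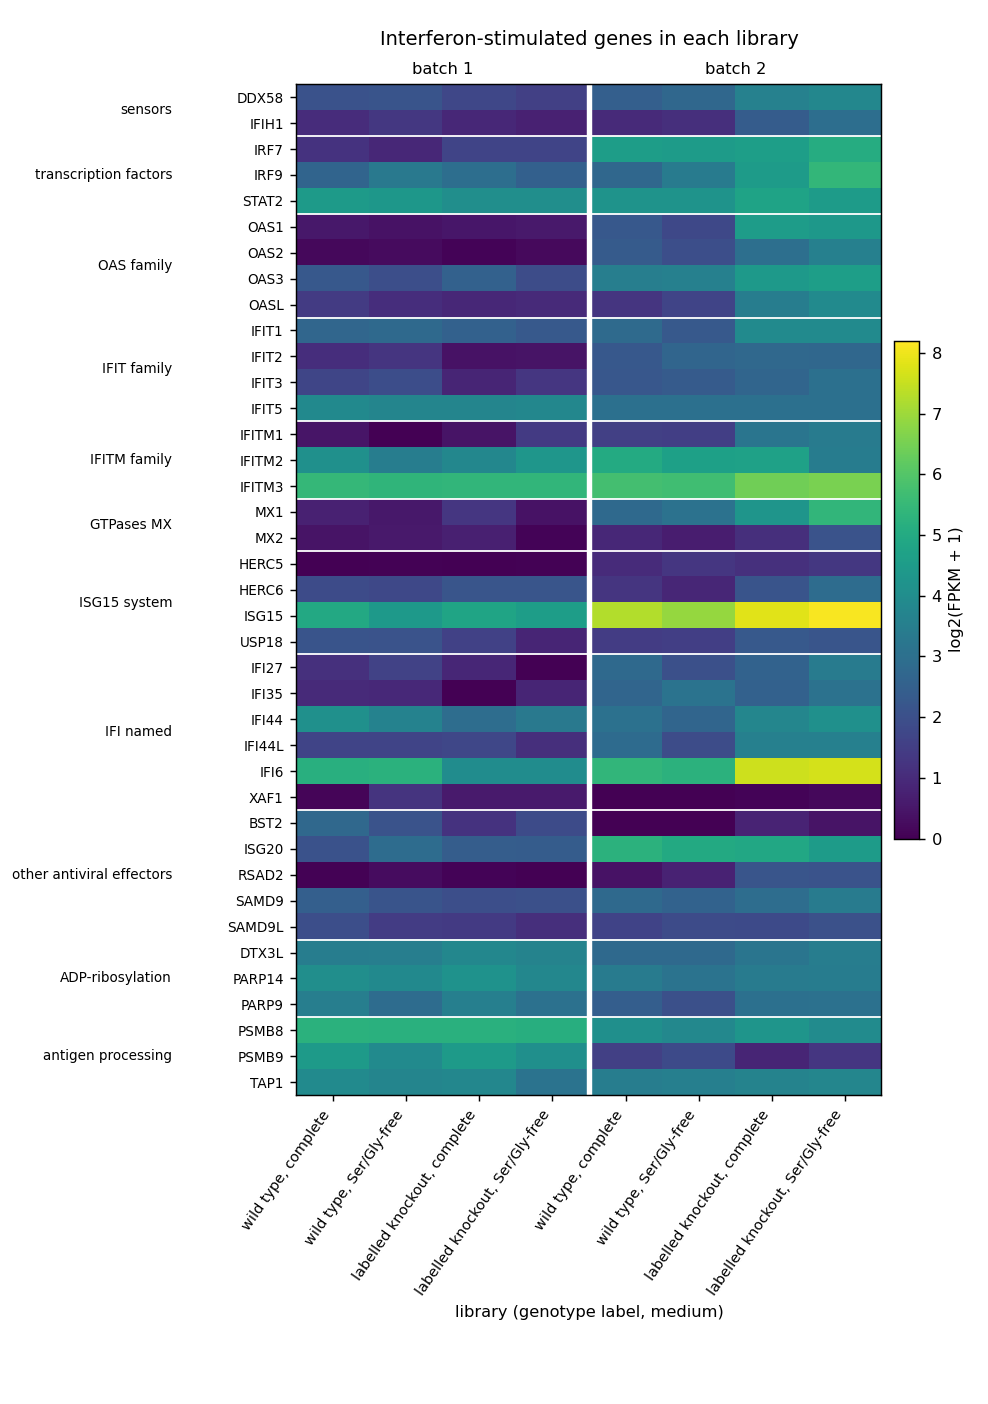
Level of the 39 members in the 8 libraries, as log2(FPKM + 1) by colour; rows are members grouped by role, columns are libraries, and the white vertical line parts the 2 batches. The labelled knockout libraries of batch 2 are brighter than the wild-type ones for most rows, with ISG15 at 276 FPKM the brightest.

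The contrast between genotype labels, taken over both media within each batch, went opposite ways for many members. In batch 1, both libraries labelled knockout lay below both wild-type libraries for 16 of 38 members (22.8% of all kept genes did so) and above both for 3 (15.0%). In batch 2 they lay above both wild-type libraries for 30 of 38 members (23.3%) and below for 2 (25.9%). Among those above, MX2 and RSAD2 passed the filter only through the batch 2 libraries labelled knockout, so their place in these counts is not independent of the filter. Below in batch 1 and above in batch 2 held for 12 members, against 5.42% of all genes, and the reverse pattern for 0, against 3.62%. In both batches above held for 3 members (HERC6, DTX3L and IRF7), against 3.76%, and below for 0, against 6.76%. The median difference of log2(FPKM + 1), labelled knockout minus wild type, was −0.10 in batch 1 and 0.75 in batch 2, where the medians of all genes were −0.03 and 0.00. With limma, 1 member was called in batch 1 (adjusted p under 0.05, lower), where 0.383% of all genes were called in either direction and 0.306% lower. In batch 2, 12 members were called, all higher and RSAD2 among them, where 9.78% of all genes were called and 4.94% were called higher. An unadjusted p was under 0.05 for 8 members in batch 1 and 22 in batch 2, against 14.7% and 26.4% of all genes. In this fit the 2 libraries of a genotype label in a batch come from 1 experiment and 2 media. Its p-values therefore measure the spread left after a common medium effect, not the spread between independent experiments.

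**Figure D2:**
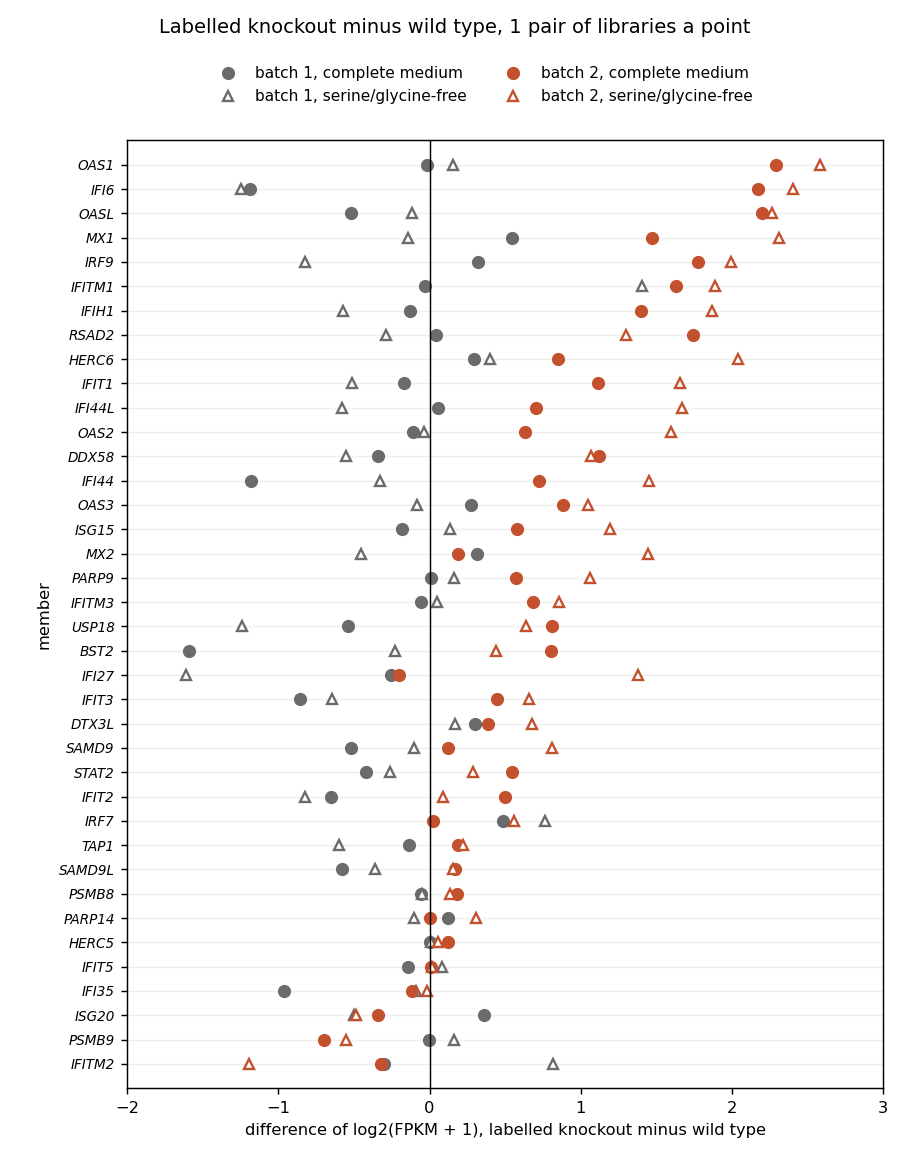
Difference of log2(FPKM + 1), labelled knockout minus wild type, for the 38 members that passed the filter; each point is 1 pair of libraries, grey for batch 1 and orange for batch 2, filled circles for complete and open triangles for serine/glycine-free medium. Batch 2 points lie mostly right of 0, up to 2.59 for OAS1, and batch 1 points lie mostly left of 0 or near it, down to −1.61 for IFI27.

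Both cytosolic RNA sensors were called higher in batch 2. IFIH1, which encodes MDA5 and recognises long double-stranded RNA, lies at chr2:163123589-163175213 (hg19, as are all loci below). Its level in complete and serine/glycine-free medium was 1.05 and 1.52 FPKM in batch 1 wild type and 0.877 and 0.698 FPKM in batch 1 labelled knockout. The batch 2 levels were 0.967 and 1.13 FPKM in wild type and 4.18 and 6.80 FPKM in labelled knockout. The groups did not overlap in either batch and were in opposite order, with a log2 difference of 1.63 ± 0.24 (SE, limma adjusted p = 0.0167) in batch 2 and −0.35 ± 0.24 (adjusted p = 0.576) in batch 1. DDX58, which encodes RIG-I, the sensor of RNA with a terminal triphosphate, lies at chr9:32455300-32526322. It stood at 3.20 and 3.34 FPKM in batch 1 wild type and at 2.32 and 1.96 FPKM in batch 1 labelled knockout, against 4.64 and 5.64 FPKM and then 11.3 and 12.9 FPKM in batch 2. The 2 batch 2 libraries labelled knockout were the highest of the 8, and the difference there was 1.09 ± 0.18 (adjusted p = 0.0221).

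Of the 3 transcription factors, IRF9 was called in batch 2, and STAT2 and IRF7 were not. IRF9, the DNA-binding subunit of ISGF3 (chr14:24612574-24636611), stood at 5.29 and 9.01 FPKM in batch 1 wild type and at 6.85 and 4.66 FPKM in batch 1 labelled knockout, so those groups overlapped. Its batch 2 levels were 5.65 and 9.69 FPKM in wild type and 21.8 and 41.6 FPKM in labelled knockout, a difference of 1.89 ± 0.34 (limma adjusted p = 0.0276). STAT2, its partner (chr12:56735381-56753939), did not overlap between labels in either batch: 21.3 and 19.1 FPKM against 15.7 and 15.8 FPKM in batch 1, and 17.6 and 17.5 FPKM against 26.3 and 21.6 FPKM in batch 2, where the difference was 0.42 ± 0.13 (adjusted p = 0.101). IRF7, which drives interferon-alpha genes (chr11:612553-615999), differed mainly by batch, with 1.28, 0.886, 2.20 and 2.20 FPKM in batch 1 and 22.6, 21.9, 23.0 and 32.8 FPKM in batch 2 (wild type complete and serine/glycine-free, then labelled knockout in the same order). Its batch 2 difference of 0.29 ± 0.22 (adjusted p = 0.469) rested on the library in serine/glycine-free medium and was −0.01 without it.

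The OAS family makes short oligoadenylates that turn on RNase L, and 2 of its 4 members were called higher in batch 2. OAS1 (within the locus chr12:113344582-113455556, which the files give to OAS1, OAS2 and OAS3 alike) stood between 0.326 and 0.479 FPKM in all 4 libraries of batch 1. In batch 2 it was 3.76 and 2.44 FPKM in wild type and 22.3 and 19.7 FPKM in labelled knockout, the largest batch 2 difference among members at 2.44 ± 0.21 (limma adjusted p = 0.00417). OASL, a family member that lacks the enzymatic activity and binds RIG-I (chr12:121458095-121477045), stood at 1.68 and 1.12 FPKM in batch 1 wild type and at 0.873 and 0.956 FPKM in batch 1 labelled knockout. Its batch 2 values were 1.42 and 2.19 FPKM in wild type and 10.1 and 14.3 FPKM in labelled knockout, a difference of 2.23 ± 0.26 (adjusted p = 0.00862). OAS2 and OAS3 also did not overlap in batch 2 and had differences of 1.11 and 0.97 (adjusted p = 0.0630 and 0.0620).

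The IFIT proteins bind viral RNA and block its translation; in batch 1 their 4 genes had a median difference of −0.54, and in batch 2 of 0.42, where 1 was called. IFIT2 (chr10:90973326-91174314, a locus the files share among IFIT1, IFIT2 and IFIT3) stood at 1.09 and 1.42 FPKM in batch 1 wild type and at 0.334 and 0.362 FPKM in batch 1 labelled knockout. Its batch 2 values were 3.82 and 5.33 FPKM against 5.82 and 5.73 FPKM. IFIT3, which stabilises IFIT1 on RNA, stood at 2.26 and 2.84 FPKM against 0.802 and 1.45 FPKM in batch 1, and at 3.70 and 4.14 FPKM against 5.42 and 7.11 FPKM in batch 2. Neither group of either gene overlapped with the other in a batch, and the order turned between the batches; the batch 1 differences of −0.74 ± 0.20 (IFIT2) and −0.75 ± 0.19 (IFIT3) had limma adjusted p of 0.210 and 0.182. IFIT1, which binds viral RNA at its capped end, was the member called in batch 2 at 1.39 ± 0.20 (adjusted p = 0.0163). It rose from 6.08 and 3.86 FPKM in wild type to 14.3 and 14.3 FPKM in labelled knockout. IFIT5 stood between 7.07 and 7.20 FPKM in the 4 libraries of batch 2.

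The IFITM proteins restrict the fusion of viruses with cell membranes, and their 3 genes differed from each other. IFITM1 (chr11:307631-315272, a locus shared with IFITM2) stood at 0.377 and 0 FPKM in batch 1 wild type and at 0.349 and 1.65 FPKM in batch 1 labelled knockout. Batch 2 gave 1.95 and 1.85 FPKM in wild type and 8.13 and 9.56 FPKM in labelled knockout, a difference of 1.76 ± 0.36 (limma adjusted p = 0.0394). IFITM3 was called too, at 52.3 and 50.4 FPKM against 84.8 and 92.3 FPKM, a difference of 0.77 ± 0.10 (adjusted p = 0.0118), while in batch 1 all 4 of its libraries were within 39.8 to 42.9 FPKM. IFITM2 had the lowest batch 2 difference of all members, −0.76 ± 0.38 (adjusted p = 0.281), from 31.1 and 24.1 FPKM in wild type to 24.7 and 9.96 FPKM in labelled knockout. The 3 genes are close copies of each other, so reads may have been split between them.

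**Figure D3:**
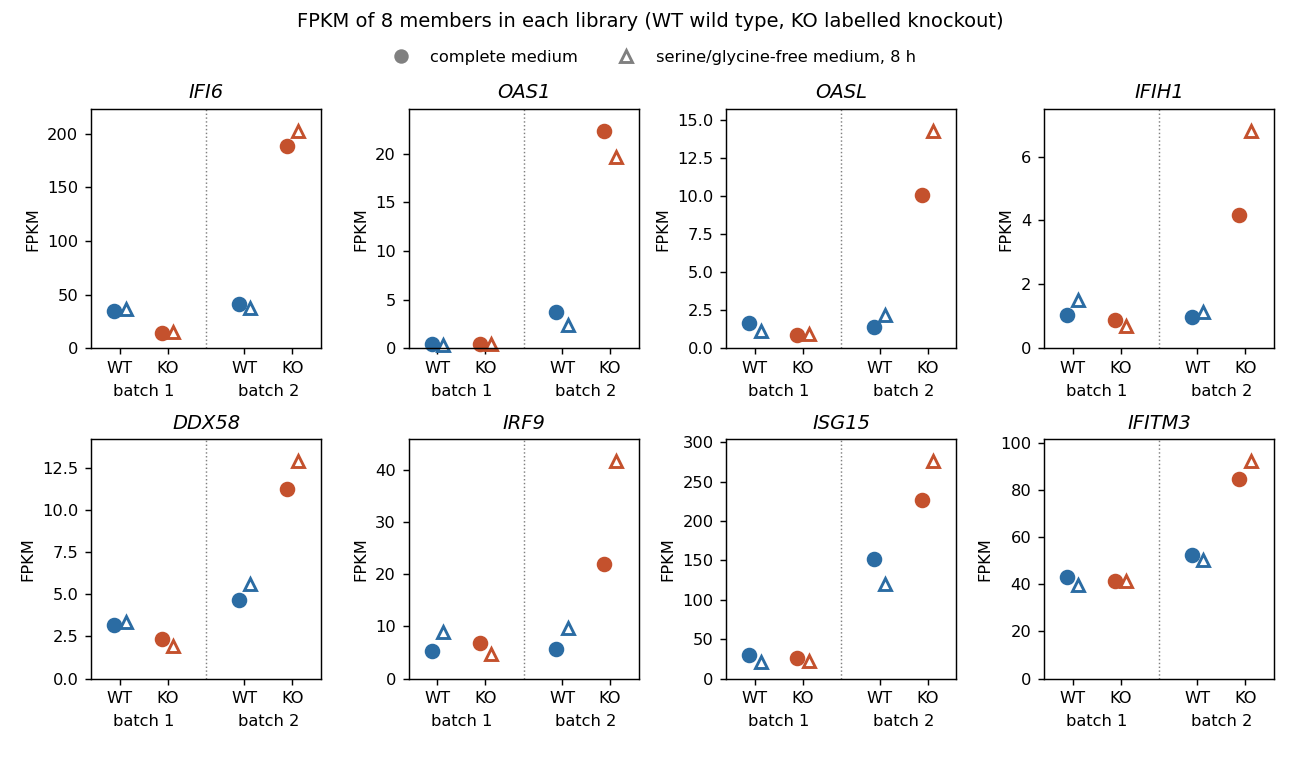
FPKM of 8 members in each library, with a linear axis from 0 for each gene; blue is wild type (WT) and orange is labelled knockout (KO), filled circles are complete medium and open triangles serine/glycine-free medium. In batch 2 both KO points lie above both WT points for each of the 8 genes, and in batch 1 IFI6, OASL, IFIH1 and DDX58 lie below.

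IFI6 was the one member called in both batches, in opposite directions. It encodes a small membrane protein that counters apoptosis and flavivirus replication, and lies at chr1:27992572-27998729. In batch 1 it stood at 35.2 and 36.9 FPKM in wild type and at 14.8 and 15.0 FPKM in labelled knockout, a difference of −1.22 ± 0.10 (limma adjusted p = 0.0195). In batch 2 the levels were 41.0 and 37.5 FPKM in wild type and 189 and 203 FPKM in labelled knockout, a difference of 2.29 ± 0.10 (adjusted p = 0.000744). Wild type thus lay between 35.2 and 41.0 FPKM in all 4 libraries, and the 4 libraries labelled knockout lay outside that range on either side. The batch 2 call held in all 17 alternatives run, while the batch 1 call held in 8 of 17 and was lost without any 1 of the 8 libraries.

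None of the other 4 genes of the IFI names that passed the filter was called in either batch. IFI44 (chr1:79115481-79129763) stood at 16.4 and 11.4 FPKM in batch 1 wild type and at 6.69 and 8.94 FPKM in batch 1 labelled knockout. Batch 2 gave 7.30 and 5.34 FPKM against 12.7 and 16.3 FPKM, with differences of −0.75 ± 0.27 and 1.09 ± 0.27 (limma adjusted p = 0.290 and 0.0622). IFI44L, its paralog (chr1:79085607-79111830), stood at 2.24, 2.21, 2.37 and 1.14 FPKM in batch 1 (wild type complete and serine/glycine-free, then labelled knockout) and at 6.37, 2.75, 11.0 and 10.9 FPKM in batch 2. IFI27 (chr14:94571182-94583033) spread widely between media. It stood at 1.18 and 2.05 FPKM against 0.823 and 0 FPKM in batch 1 and at 5.94 and 3.05 FPKM against 5.03 and 9.54 FPKM in batch 2, where the groups overlapped. IFI35 (chr17:41158742-41166473) was at or below 0.948 FPKM in batch 1, with 1 library listed at 0, and at 4.83 to 7.66 FPKM in batch 2.

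Among the MX GTPases, which trap viral nucleocapsids, MX1 (chr21:42792231-42831141) stood at 0.673 and 0.446 FPKM in batch 1 wild type and at 1.45 and 0.308 FPKM in batch 1 labelled knockout. Its batch 2 levels were 6.04 and 7.49 FPKM in wild type and 18.5 and 41.2 FPKM in labelled knockout. The difference of 1.89 ± 0.46 was the fourth largest but had a limma adjusted p of 0.0618, with a spread between media within labelled knockout. RSAD2, whose product viperin makes a chain-terminating nucleotide (chr2:6980701-7038370), was at or below 0.739 FPKM in every library but the 2 of batch 2 labelled knockout, which had 3.46 and 3.29 FPKM (difference 1.52 ± 0.23, adjusted p = 0.0164). RSAD2 passed the filter only through those 2 libraries, as did MX2 (1.13 and 3.29 FPKM there, at or below 0.870 FPKM elsewhere). Both genes thus entered the fits by way of the group where they were high. BST2, or tetherin, which holds budding virus at the cell surface (chr19:17513748-17516457), stood at 5.85 and 3.24 FPKM in batch 1 wild type and at 1.28 and 2.62 FPKM in batch 1 labelled knockout. In batch 2 it was listed at 0 in both wild-type libraries and stood at 0.746 and 0.358 FPKM in labelled knockout. Its differences of −0.91 and 0.62 were not called.

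In the ISG15 system 2 of 4 members were called higher in batch 2. ISG15 itself stood at 30.1 and 20.8 FPKM against 26.4 and 22.9 FPKM in batch 1, where the groups overlapped, and at 151 and 120 FPKM against 226 and 276 FPKM in batch 2 (difference 0.89 ± 0.19, limma adjusted p = 0.0475). HERC6, of the HERC family of ligases, stood at 1.40 and 0.829 FPKM against 3.33 and 6.52 FPKM in batch 2 (1.45 ± 0.31, adjusted p = 0.0463) and, in batch 1, at 2.64 and 2.42 FPKM against 3.47 and 3.50 FPKM, so it was higher in labelled knockout in both. USP18, the protease that removes ISG15 and restrains the receptor (chr22:18632666-18660164), stood at 3.38 and 3.27 FPKM against 2.01 and 0.806 FPKM in batch 1 and at 1.77 and 1.90 FPKM against 3.87 and 3.51 FPKM in batch 2. Its differences of −0.89 ± 0.26 and 0.73 ± 0.26 were not called (adjusted p = 0.224 and 0.146).

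The remaining roles showed smaller differences. None of the 3 ADP-ribosylation genes (PARP9 with its partner DTX3L, and PARP14) was called, and their batch 2 differences ran from 0.15 to 0.82. None of the 3 antigen-processing genes was called either. PSMB9, an immunoproteasome subunit, went the other way from most members in batch 2 (−0.63, adjusted p = 0.241), at 1.94 and 2.58 FPKM in wild type and 0.811 and 1.45 FPKM in labelled knockout, against 14.3 to 21.1 FPKM in batch 1.

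The difference between the batches was tested in itself, as the batch 2 contrast minus the batch 1 contrast. With limma, 7 of 38 members were called, all higher in batch 2, where 3.91% of all genes were called and 2.65% in that direction. At an unadjusted p under 0.05 the count was 22, against 22.2%. The 7 members called were IFI6 (3.51 ± 0.14), OASL (2.55 ± 0.37), OAS1 (2.37 ± 0.30), IFIH1 (1.98 ± 0.35), IFIT1 (1.73 ± 0.29), DDX58 (1.54 ± 0.26) and IFITM3 (0.78 ± 0.14), with limma adjusted p from 0.00161 to 0.0478. The median difference over the 38 members was 0.97, against 0.02 over all genes.

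The counts rested on few libraries. Without the batch 2 labelled knockout library in complete medium, or that in serine/glycine-free medium, 1 of the 12 batch 2 calls was left. Without either wild-type library of batch 2, 2 members were called, and leaving out the batch 1 wild-type library in complete or in serine/glycine-free medium gave 7 and 6. The 7 calls for the difference between batches became 1 or 2 without any 1 of the 8 libraries.

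Markers of epithelial and mesenchymal state also differed between the genotype labels. Of 13 epithelial markers that passed the filter, 11 were called higher in labelled knockout in batch 2 (background 4.94%) and 0 in batch 1. Among those called, GRHL2, OVOL1, RAB25 and ST14 reached 1 FPKM only in the batch 2 libraries labelled knockout, and ESRP1 only there and in 1 other library. These genes passed the filter through the group where they were high, so the count of 11 is not independent of the filter. The summed level of the epithelial list was 487 and 303 FPKM in batch 2 wild type, 1079 and 901 FPKM in batch 2 labelled knockout and 15.9 to 26.4 FPKM in batch 1. Most of the batch 2 wild-type sum came from KRT19 (321 and 216 FPKM) and CLDN4 (135 and 55.5 FPKM). Neither was called in batch 2, where labelled knockout had 375 and 306 FPKM of KRT19 and 171 and 90.8 FPKM of CLDN4. CDH1, or E-cadherin, stood at 0.541 and 1.23 FPKM in batch 2 wild type and at 60.0 and 56.2 FPKM in batch 2 labelled knockout. Of 12 mesenchymal markers 4 were called lower in batch 2 and 1 higher (9.78% of all genes called, 4.94% higher), with a list median of −0.43. VIM, or vimentin, fell from 598 and 638 FPKM to 118 and 102 FPKM. In batch 1, 2 of the 12 were called higher, the collagen genes COL1A1 (1.76) and COL3A1 (1.56, both limma adjusted p = 0.0464). There 0.383% of all genes were called in either direction, and the list median was 0.42. Both libraries labelled knockout lay above both wild-type libraries for 8 of the 12 in batch 1 (15.0% of all genes) and for 1 in batch 2 (23.3%). They lay below for 1 in batch 1 (22.8%) and 6 in batch 2 (25.9%). The part of these changes in the member result was not tested. Of 16 immune cell markers 1 passed the filter (CD68, at 1.68 to 15.1 FPKM), 5 were at 0 in all libraries, and PTPRC, the common leukocyte antigen, was at or below 0.570 FPKM.

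Averaged over the 2 batches, no contrast between genotype labels was called for a member. In complete medium the member median was 0.22 (27 of 38 higher), with 0 members called by limma and 0 at an unadjusted p under 0.05, where 0.0333% and 4.78% of all genes passed. In serine/glycine-free medium it was 0.44 (29 higher), with 0 called (0.050% of all genes) and 3 at an unadjusted p under 0.05 (5.86%): HERC6, IFITM1 and IRF7. Within batches the medians were −0.12 (batch 1) and 0.57 (batch 2) in complete medium and −0.13 and 0.95 in serine/glycine-free medium, so the mean over batches joins 2 opposite values. Without both batch 2 libraries labelled knockout, the medians were −0.13 and −0.25, with 0 members called.

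The response to serine/glycine-free medium was small beside these contrasts. Over the 4 pairs of libraries the member median was −0.01, with 18 members higher and 20 lower, and 0 were called by limma, where 0.478% of all genes were. Unadjusted p was under 0.05 for 2 members, IFI35 and PARP9, against 18.2% of all genes. In the same fit 6 of 11 genes of the amino acid response were called higher, with a list median of 1.83; SLC7A11, the cystine transporter, rose by 2.19 and TRIB3, a pseudokinase, by 2.80 on the log2 scale. The members with the largest mean responses were IFI35 (0.46 ± 0.18), IRF9 (0.45 ± 0.24), IFITM2 (−0.43 ± 0.27) and IFI44L (−0.41 ± 0.21), with adjusted p from 0.273 to 0.455. IRF9 was higher in serine/glycine-free medium in 3 of 4 pairs and IFI35 in 3 of 4, while IFI44L was lower in 4 of 4 and IFITM2 in 3 of 4. In all 4 pairs 2 members were higher (HERC5 and IFIT3; 14.6% of all genes) and 2 lower (IFI44L and PSMB8; 11.4%).

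**Figure D4:**
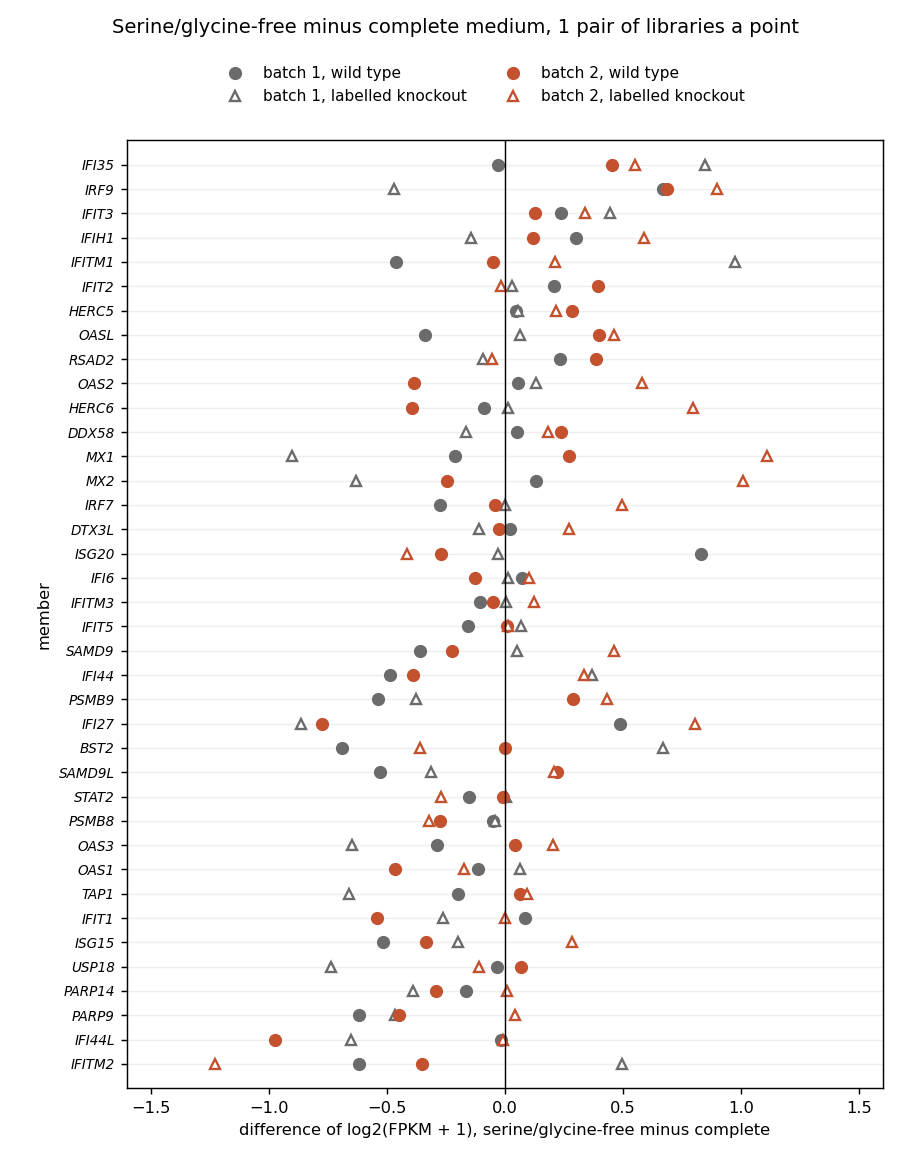
Difference of log2(FPKM + 1), serine/glycine-free minus complete medium, for the 38 members that passed the filter; each point is 1 pair of libraries, grey for batch 1 and orange for batch 2, filled circles for wild type and open triangles for labelled knockout. Most members have points on both sides of 0, and the range is −1.23 (IFITM2) to 1.11 (MX1), both in batch 2 labelled knockout.

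The 4 pairs had different medians. In wild type the members' median response was −0.10 in batch 1 and −0.03 in batch 2, and in labelled knockout −0.04 in batch 1 and 0.21 in batch 2, where 28 of 38 members were higher in serine/glycine-free medium. MX1 had the largest response there, 18.5 FPKM in complete and 41.2 FPKM in serine/glycine-free medium, while batch 1 labelled knockout gave 1.45 and 0.308 FPKM. Among wild-type pairs 7 members were higher in both batches (29.9% of all genes) and 14 lower (24.6%); among labelled knockout pairs 12 were higher (27.1%) and 5 lower (25.1%). Limma called 0 members for the wild-type response (0.0556% of all genes), 0 for the labelled knockout response (0.0167%), 0 for the difference between genotype labels (0.0611%) and 0 for the difference between batches (0.106%). At an unadjusted p under 0.05 the counts were 0, 0, 0 and 2 (MX1 and PSMB9), against 5.64%, 5.59%, 1.53% and 10.7% of all genes.

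The genes upstream of the members gave few calls. No interferon ligand passed the filter: 21 were listed and 16 were at 0 in all 8 libraries. IFNB1, or interferon beta, was listed at 0.123 FPKM in batch 2 wild type in complete medium and at 0.530 FPKM in batch 2 labelled knockout in serine/glycine-free medium, and at 0 elsewhere. IFNL1, a type III interferon, was above 0 only in the 2 batch 2 libraries labelled knockout (0.243 and 0.636 FPKM). Levels under 1 FPKM rest on few fragments, and the number of reads behind them is not known.

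Of 11 receptor, kinase and STAT genes, 1 was called higher and 1 lower in batch 2, and 0 in batch 1. Among all genes 9.78% were called in batch 2, with 4.94% called higher, and 0.383% were called in batch 1. IFNGR1, a chain of the interferon gamma receptor, was higher in labelled knockout (6.77 and 6.99 FPKM against 15.3 and 13.9 FPKM; 0.98 ± 0.14, limma adjusted p = 0.0157). TYK2 was lower (48.8 and 42.0 FPKM against 28.2 and 31.2 FPKM; −0.59 ± 0.12, adjusted p = 0.0419). IFNAR1 and IFNAR2, the chains of the type I receptor, had differences of −0.47 and −0.48 (adjusted p = 0.101 and 0.392). STAT3 stood at 28.2 to 35.2 FPKM in batch 1 and at 0.0695 to 0.506 FPKM in batch 2, a gap between the batches that the genotype labels do not share. IFNGR2, IFNLR1, IL10RB, JAK1 and JAK2 had batch 2 differences from −0.67 to 0.71, none called.

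Further lists of the pathway were mixed. Their batch 2 counts stand beside 9.78% of all genes called there, with 4.94% called higher. With limma, IRF1, IRF2, IRF3, IRF5 and IRF8 were not called in batch 2. Of 13 sensing and adaptor genes 1 was called, TMEM173, which encodes STING, lower at −1.59 ± 0.29 (adjusted p = 0.0280), and TBK1, MAVS and MB21D1 were not. Of 7 brakes of the pathway 1 was called, PTPN2, a phosphatase of JAK and STAT proteins, lower at −0.55 ± 0.11 (adjusted p = 0.0370). Of 39 other interferon-stimulated genes outside the members, 3 were called higher in batch 2 (IFI30, PLSCR1 and PARP12) and 1 lower (APOBEC3G), with a list median of 0.30. PLSCR1, a scramblase with antiviral activity, stood at 19.5 and 23.8 FPKM in wild type and at 40.9 and 56.9 FPKM in labelled knockout (1.13 ± 0.11, adjusted p = 0.00582). Of 16 antigen presentation entries 3 were called higher, HLA-B (1.33 ± 0.10, adjusted p = 0.00268), HLA-C (0.98 ± 0.09, adjusted p = 0.00528) and PSMB10 (0.62 ± 0.13, adjusted p = 0.0411). In batch 1, 0 genes of these 5 lists were called, against 0.383% of all genes.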

How the data were processed

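RNA-seq libraries of 8 cultures were made from total RNA, per the labels' protocols. For each batch the authors deposited 1 table of FPKM values (57884 Ensembl genes, 4 libraries). The submitters' processing notes name hg19, TopHat, Cufflinks and Cuffdiff; their versions were not given. The tables were normalized separately, so differences were taken within a batch. Read counts were not used here, the depth is unknown, and no counting interval is given. FPKM sums were 2429662 to 3148153 per library, of which small RNA genes held 60.5% to 65.7%. An exact 0 can be a failed estimate. By the files, 20 members share a locus with another listed gene, whose reads may have been split. Loci are hg19, 1-based; promoters are RefSeq, GRCh38.p14, matched by symbol.

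The filter kept 17994 genes (13080 protein-coding) that reached an FPKM of 1 in at least 2 libraries, and log2(FPKM + 1) was fitted with limma 3.58.1 in R 4.3.3 (trended empirical Bayes prior, two-sided p, Benjamini-Hochberg over all kept genes, threshold 0.05). Fold changes on this scale understate those of low genes. One fit had 4 group means with the batch as a replicate block (3 residual and 2.97 prior degrees of freedom). Another had 4 means of genotype label and batch with a medium term (3 and 2.72), for the contrasts within a batch, their difference and the response over 4 pairs, and one more had a medium term for each batch (2 and 2.38). The labels state that a replicate number marks a shared batch, so the block pairs the libraries; over 6 such pairs, deviations from the group means correlated at 0.650 to 0.775. P-values rest on 2 experiments, and each contrast within a batch compares libraries of 1 experiment only.

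Full values were given for the sensors and transcription factors, the 8 members with the largest contrast in each batch and the 4 with the largest medium response; other members, such as the remaining called ones and those completing a family, were named after their values were seen. In other lists the called genes and those of the receptor list were named; some genes of these lists are not reported here. The members and lists were chosen with earlier results of these data known. The fits were tested on simulated data with 200 of 17994 genes changed. In the batch 2 contrast, 0% of genes with a log2 change of 1 were called, and 65.5% of those with a change of 2. For the medium response over 4 pairs these shares were 27.5% and 83%. A missing call thus does not show that a member was unchanged. Alternatives varied the pseudocount, filter, scaling, genes, prior, block and libraries.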

Additional observations from a re-analysis of the deposited data

Results flagged for a closer look

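For 7 members the contrast between genotype labels differed between the 2 batches by limma's test of that difference (adjusted p under 0.05; batch 2 minus batch 1, log2 scale). The differences were 3.51 for IFI6, 2.55 for OASL, 2.37 for OAS1, 1.98 for IFIH1, 1.73 for IFIT1, 1.54 for DDX58 and 0.78 for IFITM3. The call for IFI6 held in all 17 alternatives run, and those for the other 6 held in 6 to 8 of 16 or 17. ATF3, the epithelial markers and the mesenchymal markers also differed between the genotype labels in batch 2, with their values given beside the member result, and their part in it was not tested.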

How the results depend on the processing

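The replicate block changed no call: with and without it, 0 members were called in each of the 5 comparisons fitted with it. The count of 1 in batch 1 became 0 with a prior without trend and ranged from 0 to 0 when each library was left out. The count of 12 in batch 2 became 3 with no filter on low values and ranged from 1 to 10 when each library was left out. The count of 7 for the difference between batches became 2 with a pseudocount of 0.1, 1 with no filter and 12 with protein-coding genes only, and ranged from 1 to 2 when each library was left out. The cause of these moves was not tested, apart from the fewer samples or other number of genes in the fit. In batch 1 the member median in complete medium was −0.149 and −0.144 with pseudocounts of 0.1 and 0.5, and −0.082, −0.096 and −0.088 with upper quartile, median ratio and quantile scaling. In serine/glycine-free medium it was −0.240 and −0.190 with those pseudocounts, −0.144 with no filter, −0.105 with a filter at 5 FPKM, and −0.097, −0.104 and −0.047 with those scalings. The IRF7 difference in batch 2 turned to −0.00905 without the batch 2 labelled knockout library in serine/glycine-free medium and was 0.593 without that in complete medium. The setting without both batch 2 libraries labelled knockout was chosen after seeing the data. The scalings moved the median of all genes by at most 0.0578. Depth is unknown and limits members under 1 FPKM.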
